A study of Mus musculus with 3 samples.

Results

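The deposited cell table names 70 cells NK cells, out of 12668 CD45-selected immune cells from the mouse brain. They were taken as every cell that the class column of that table calls NK cells, in all 3 libraries. The libraries held 9 such cells among 3544 with no tumor, 43 among 5024 from LGG (low grade glioma) and 18 among 4100 from the library labelled HGG.

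Droplet single-cell RNA sequencing was run on 1 library per group, to follow the immune cells of a mouse glioma model, chiefly the myeloid ones, across malignant stages. The tissue taken was either tumor or a piece of normal tissue of like size. In all 3 groups it came from the right hemisphere, the side into which cells had been injected. CD45+ cells were selected with a magnetic kit after papain digestion. CD45 is the surface protein shared by blood-derived immune cells and microglia. The labelled age was 0 to 2 weeks for the no-tumor library, 3 to 4 weeks for LGG and 6 to 8 weeks for HGG. The labels do not give the starting point of these weeks (birth or injection), nor the strain, the sex, the injected cells or the number of animals in a library. The third library is titled as free of tumor but is named and described as HGG, and it is called HGG from here on. Library, labelled age and tumor group cannot be told apart. No difference between groups has a replicate check, so no p-value was computed.

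Natural killer cells are innate lymphocytes that kill stressed, infected or transformed cells by releasing perforin and granzymes, without the rearranged antigen receptors of T and B cells. Neighbouring lymphocytes share much of this program. Innate lymphoid cells of the first group express many of the same receptors, NKT cells carry a T cell receptor together with NK receptors, and activated CD8 T cells use the same granules.

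The name could not be set against its defining genes Ncr1 and Klrb1c, which encode NK cell receptors, and Gzma, which encodes a granzyme. No value per gene was analysed here, and for the same reason UMIs were not thinned to equal depth. The class was described instead by its depth, its cell cycle scores, its doublet calls, its clusters and the names that other columns of the same table give to the same cells. All of those names were made from the same cells and are not independent of one another. UMIs, or unique molecular identifiers, are the counted RNA molecules of a cell. Libraries had median depths of 8826.5 UMIs per cell with no tumor, 9863.5 for LGG and 12907.5 for HGG. Across libraries 15 barcodes were shared, and 0 of them belonged to an NK cell.

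NK cells were a small class in every library. They made up 0.254% of cells with no tumor (95% exact interval 0.116% to 0.482%), 0.856% in LGG (0.620% to 1.15%) and 0.439% in HGG (0.260% to 0.693%). Every interval is at 95% and covers counting error only. Those of shares are exact Clopper-Pearson intervals, and those of ratios are Katz log intervals. To be called, 2 shares had to differ by a factor of 1.5 or more with exact intervals that lie apart. The NK share in LGG was 3.37 times that with no tumor (1.65 to 6.90), which was called higher. Of the 14 classes with at least 20 cells in a library, 64.3% were called higher in the same comparison, so a higher share was common there. The ratio was 0.513 for HGG against LGG (0.296 to 0.888) and 1.73 for HGG against no tumor (0.778 to 3.84), with no call in either. The background was 42.9% of classes called lower for HGG against LGG and 42.9% called higher for HGG against no tumor. Cells of 1 library are not independent animals, and in a selected suspension a share of cells also moves with every other class.

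The call for LGG depended on what the NK cells were set against. Among cells other than microglia, they were 1.71% in LGG and 1.35% with no tumor, with a ratio of 1.27 (0.622 to 2.59) and no call. Among lymphoid cells (T, NK and B), they were 6.64% in LGG and 10.3% with no tumor, a ratio of 0.641 (0.324 to 1.27) without a call. Over cells of 2985.2 to 14346.3 UMIs, a range that all libraries cover, the ratio was 5.08 for LGG against no tumor and 4.89 for HGG against no tumor, and both were called. Only 6 no-tumor NK cells fall in that range. There the ratio for HGG against LGG was 0.962 (0.539 to 1.72), against 0.513 over all depths.

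Among T and NK cells the order of the libraries was turned round. NK cells were 9 of 38 such cells with no tumor (23.7%, 11.4% to 40.2%), 43 of 534 in LGG (8.05%, 5.89% to 10.7%) and 18 of 124 in HGG (14.5%, 8.84% to 22%). The ratio of 0.340 for LGG against no tumor (0.180 to 0.644) was called lower. That for HGG against LGG was 1.80 (1.08 to 3.02) and that for HGG against no tumor was 0.613 (0.30 to 1.25), without a call. The rest of the T and NK cells with no tumor were 29 T cells with no finer name. The LGG library held 147 CD8 T cells, 23 CD4 T cells and 321 T cells with no finer name, and the HGG library 12, 8 and 86 of these classes. With the broad names of a first SingleR column in place of the class, NK, NKT and innate lymphoid names together gave a ratio of 1.26 for LGG against no tumor, with the direction turned and no call. With its fine names the ratio was 0.689, also without a call.

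The median NK cell was below the median depth of its library in all 3 libraries, but beyond the counting interval of the NK median only in HGG. With no tumor the 9 cells had 2055, 3586, 4085, 5713, 5793, 7020, 13613, 19198 and 19929 UMIs, with a gap between the 6 shallower cells and the 3 deeper ones and an interval of the median from 3586 to 19198. In LGG the 43 cells ran from 3665 to 50117 UMIs with a median of 8822 (interval of the median 7570 to 10303). In HGG the 18 cells ran from 2054 to 9429 UMIs with a median of 6023 (4497 to 7454). Above 10000 UMIs lay 3 of 9 NK cells with no tumor, 16 of 43 in LGG and 0 of 18 in HGG. The ranges overlap in all pairs of libraries, while the HGG library, the deepest of the 3, had no deep NK cell.

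**Figure D1:**
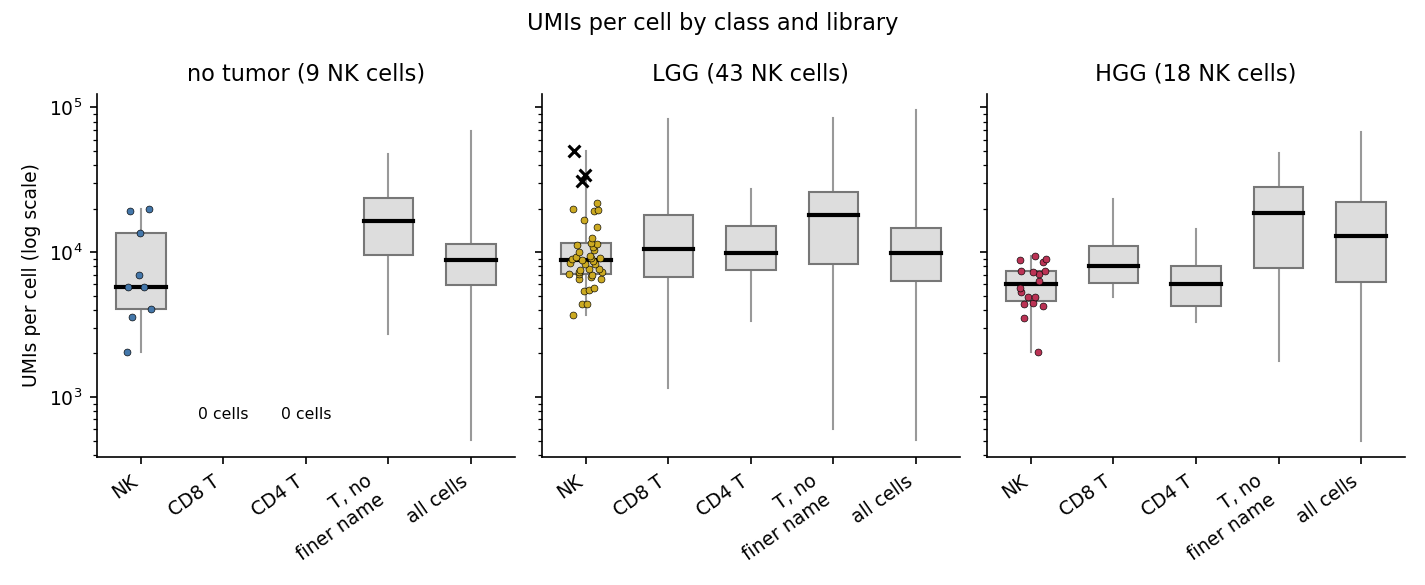
UMIs per cell on a log scale for NK cells, the other T cell classes and all cells, with 1 panel per library. Boxes span the quartiles with a line at the median, whiskers reach the lowest and highest cell, points are single NK cells and crosses are the 3 doublet calls, which fall on the deepest LGG NK cells.

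Set against all cells of the same library, the median UMIs of NK cells were 0.656 times the library median with no tumor, 0.894 times in LGG and 0.467 times in HGG. The T cells with no finer name were far deeper, at median UMIs of 16323 (no tumor), 17984 (LGG) and 18743 (HGG), and NK cells had 0.355, 0.491 and 0.321 times those depths. CD8 T cells were nearer, at 10575 UMIs in LGG and 8032 in HGG, against 8822 and 6023 for NK cells of the same libraries. CD4 T cells had medians of 9912 UMIs in LGG and 5990.5 in HGG.

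Detected genes followed the UMIs, with medians of 2006 per NK cell with no tumor (892 to 4418), 2268 in LGG (1368 to 6478) and 1916.5 in HGG (1184 to 2766). To compare genes at like depth, only cells between the 10th and the 90th percentile of the NK cells' UMIs were taken in each library. In HGG the 14 NK cells then had a median of 1916.5 genes at 6023 UMIs, against 2280 genes at 6766 UMIs over all cells in that range. In LGG the 33 NK cells had 2268 genes at 8822 UMIs, against 2444.5 genes at 9299 UMIs in CD8 T cells and 2719 genes at 10324 UMIs over all cells. CD8 T cells in the HGG range had 2003 genes at 6324 UMIs, and T cells with no finer name had 1893 genes at 6874.5 UMIs. In LGG the NK cells were lowest in genes among the T and NK classes and lowest in UMIs too, so that part of the gap in depth remained inside the range. With no tumor the range held 7 NK cells, with medians of 5793 UMIs for them and 9188 for all cells, which is no matched comparison.

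The percent of UMIs from mitochondrial genes had medians of 3.59% (no tumor), 4.12% (LGG) and 3.13% (HGG) in NK cells. The medians over all cells of those libraries were 2.33%, 3.32% and 4.13%. The NK median thus lay above that of the library in LGG (interval 3.67% to 4.73%) and below it in HGG (2.81% to 3.76%). Neither side was particular to NK cells. CD8 T cells had 3.52% in LGG and 3.17% in HGG, CD4 T cells 3.31% and 2.95%, and T cells with no finer name 3.68% and 4.10%. With no tumor the interval of the NK median, 2.12% to 3.83%, holds the median over all cells. The deposited ribosomal percent of NK cells was 0.438%, 0.459% and 0.493% in the same order of libraries. That is 1.14, 1.25 and 1.37 times the medians over all cells. CD8 T cells had 0.448% in LGG and 0.483% in HGG. Over all cells this percent reached only 1.85%, and its header does not name the genes counted. It is therefore not read as the whole share of ribosomal genes.

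Cell cycle calls named most NK cells as S or G2M. The phase column gave G1 to 4 cells, S to 2 and G2M to 3 with no tumor. It gave G1 to 10, S to 17 and G2M to 16 in LGG, and G1 to 4, S to 5 and G2M to 9 in HGG. S and G2M together made 55.6% with no tumor (21.2% to 86.3%), 76.7% in LGG (61.4% to 88.2%) and 77.8% in HGG (52.4% to 93.6%). Intervals of the 3 libraries overlap. Over all cells, the same calls came to 31.7% (no tumor), 44.2% (LGG) and 37.4% (HGG). CD8 T cells had 83.7% in LGG and 83.3% in HGG, and T cells with no finer name had 37.9%, 58.6% and 55.8%.

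Those calls rest on scores close to 0. In all 12668 cells the phase was G1 where both scores were below 0 and otherwise the phase of the larger score, so a cell a little above 0 in either score is called S or G2M. The median S score of NK cells was -0.0117 (no tumor), 0.000118 (LGG) and -0.00979 (HGG), against -0.0257, -0.0143 and -0.0181 over all cells. The median G2M score of NK cells was -0.0326, 0.00416 and 0.0193 in that order, against -0.0526, -0.0344 and -0.0410 over all cells. CD8 T cells had median G2M scores of 0.0172 in LGG and 0.0167 in HGG, and CD4 T cells 0.0283 and 0.0297. T cells with no finer name had -0.0247 (no tumor), -0.0122 (LGG) and -0.0189 (HGG). The highest S score of an NK cell was 0.165, and 2.5% of the other cells in the table lay above it, up to 0.852. The highest G2M score of an NK cell was 0.118, with 2.75% of other cells above it, up to 1.53. No NK cell reached the scores at the top of the table, but a class of 70 cells can miss it by size alone. This comparison therefore does not set the class apart from other cells, and no cycling is read from the calls alone.

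In LGG and HGG the share of S and G2M calls among NK cells was above that of all cells also at like depth. Between the 10th and the 90th percentile of NK depth, 57.1% (no tumor), 78.8% (LGG) and 78.6% (HGG) of NK cells were S or G2M, against 29.9%, 40.4% and 40.7% of all cells in those ranges. The intervals of the NK shares were 18.4% to 90.1% with no tumor, which holds the share of all cells, 61.1% to 91.0% in LGG and 49.2% to 95.3% in HGG. CD8 T cells in the same ranges had 82.7% in LGG and 71.4% in HGG, and CD4 T cells had 88.9% in LGG and 100% in HGG, over 5 cells in HGG. T cells with no finer name had 33.3% (no tumor), 61.7% (LGG) and 83.3% (HGG, 58.6% to 96.4%), and in HGG that interval overlaps the one of NK cells.

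**Figure D2:**
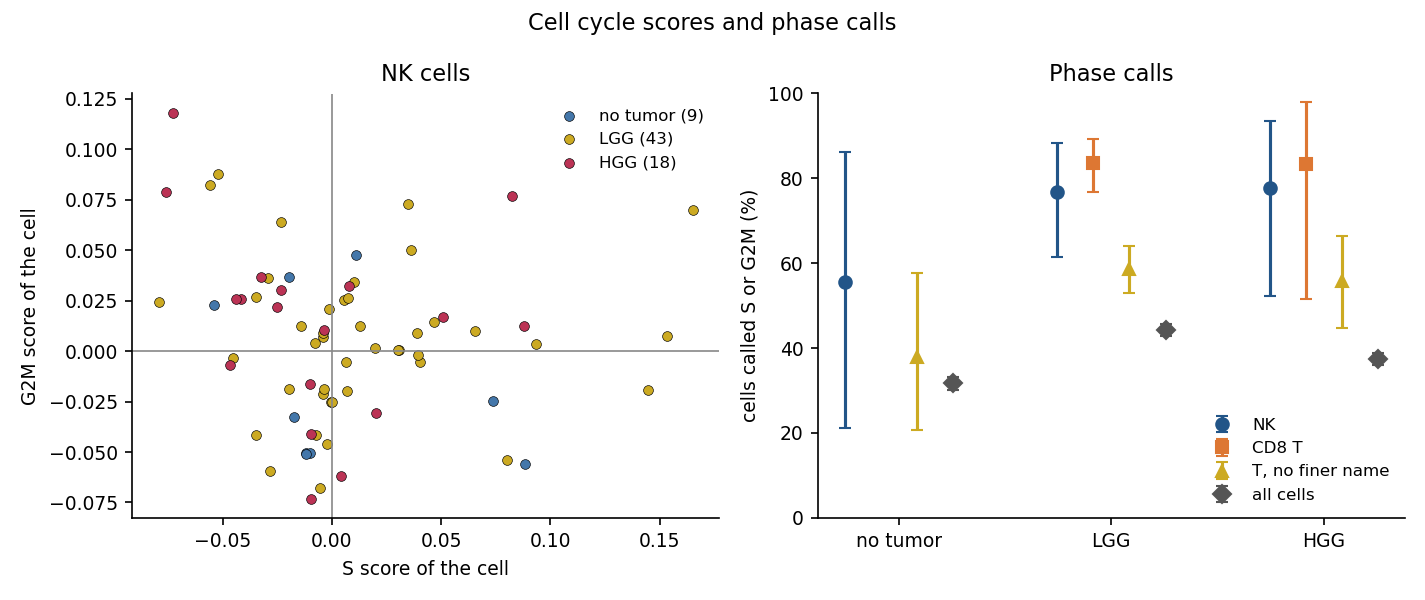
Left, S score against G2M score (deposited scores, no unit) of each of the 70 NK cells by library, with lines at 0. Cells below 0 in both scores are called G1, and other cells take the phase of the larger score. Right, percent of cells called S or G2M by class and library with exact 95% intervals, where the points of NK cells stand at 55.6%, 76.7% and 77.8% and those of all cells at 31.7%, 44.2% and 37.4%.

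Doublet calls were few. Of the 70 NK cells 3 were called doublets, all with high confidence and all in LGG, where they made 6.98% of the class (1.46% to 19.1%). With no tumor 0 of 9 cells were called, which allows a share of up to 33.3%, and in HGG 0 of 18, which allows up to 16.7%. The doublets were the 3 deepest NK cells, with 50117, 34391 and 30894 UMIs, above 21768 for the next. Among all LGG cells 4.04% were doublet calls, among LGG CD8 T cells 11.6% and among LGG T cells with no finer name 19.9%. None of the 3 was given an NK, NKT or innate lymphoid name by the first SingleR column. It named 2 of them microglia and 1 a monocyte. Among the columns described below, the second SingleR column named the doublet with 30894 UMIs NK. The second VHove column gave its joint NK/NKT name to the doublet with 34391 UMIs.

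Annotation columns fell into a set that repeats the class and a set that divides it. In 7 other columns exactly the same 70 cells are named NK. In 1 column, made with scANVI, all 70 are T cells, and that column has no NK name. Each of 5 further columns divided the class. These are a first and a second SingleR column, a column of fine labels with T cell memory states, and a first and a second column whose headers name VHove. SingleR gives each cell the name of the reference profile it is most like.

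The first SingleR column called more of the 70 cells innate lymphoid cells than NK cells. It gave the innate lymphoid name to 34 (48.6%), NK to 15 (21.4%), microglia to 12, NKT to 7, dendritic cell to 1 and monocyte to 1. The libraries differed in this division. NK was the name of 6 of 9 cells with no tumor (66.7%, 29.9% to 92.5%), 4 of 43 in LGG (9.30%, 2.59% to 22.1%) and 5 of 18 in HGG (27.8%, 9.69% to 53.5%). The ratio of 0.140 for LGG against no tumor (0.0493 to 0.395) was called lower, and that of 0.417 for HGG against no tumor (0.173 to 1.0) was not called. Innate lymphoid was the name of 23 of 43 cells in LGG (53.5%) and 11 of 18 in HGG (61.1%), and of 0 of 9 with no tumor. For the 0 of 9 no-tumor NK cells a limit of 3 counts (33.3%) was used. The observed share was 1.6 times that limit in LGG and 1.83 times in HGG, both called. These ratios leave out the counting error of the LGG and HGG shares. Their exact intervals start at 37.7% (LGG) and 35.7% (HGG), little above the no-tumor upper end of 33.6%.

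Depth moved with these names, and its part in them was not tested. The 12 cells named microglia had a median of 17025.5 UMIs (7254 to 50117), and the 56 cells named NK, NKT or innate lymphoid had 7113.5. The 3 no-tumor cells above 10000 UMIs were all among the microglia names. At or below 10000 UMIs the NK name was given to 6 of 6 cells with no tumor, 4 of 27 in LGG and 5 of 18 in HGG, and the innate lymphoid name to 0 of 6, 17 of 27 and 11 of 18. There the NK name was called lower also for HGG against no tumor, at a ratio of 0.278. The HGG share stayed at 5 of 18, since no HGG NK cell lay above 10000 UMIs. Only the no-tumor share changed, from 6 of 9 to 6 of 6. The limit of 10000 UMIs was chosen after seeing the data. At or below 10000 UMIs the innate lymphoid shares were 1.26 (LGG) and 1.22 (HGG) times a limit of 3 counts with no tumor, without a call.

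The fine names of the same SingleR column divided the cells in another way. Of the 34 cells with the broad innate lymphoid name, 21 had a fine name of an NK profile, 6 of an NKT profile, 5 of an innate lymphoid profile and 2 of a T cell profile. All 15 cells with the broad NK name had an NK profile as fine name. By fine name, NK cells were 6 of 9 with no tumor (66.7%), 23 of 43 in LGG (53.5%) and 11 of 18 in HGG (61.1%). The ratios of these shares were 0.802 for LGG against no tumor (0.468 to 1.38) and 0.917 for HGG against no tumor (0.508 to 1.66), without a call. At or below 10000 UMIs fine NK names were given to 6 of 6 cells with no tumor, 16 of 27 in LGG (59.3%) and 11 of 18 in HGG (61.1%), an order like that of the broad names, and the exact intervals overlapped. Innate lymphoid fine names were left on 1 cell in LGG and 4 in HGG.

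**Figure D3:**
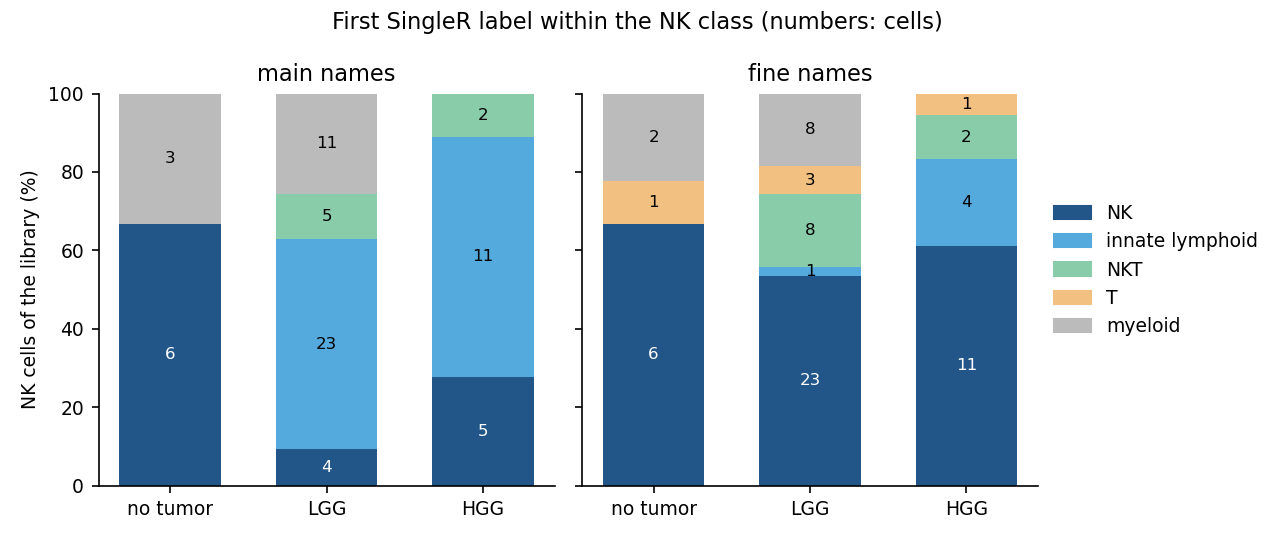
Percent of the NK cells of each library by kind of name in the first SingleR column, as main (broad) names on the left and fine names on the right, with the number of cells in each segment (T includes CD8 T names). Innate lymphoid names fill 23 of 43 LGG cells and 11 of 18 HGG cells among the broad names, and 1 and 4 among the fine names.

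The second SingleR column named 61 of the 70 cells NK (87.1%), 5 T cells and 4 microglia. Its NK name covered 8 of 9 cells with no tumor, 37 of 43 in LGG and 16 of 18 in HGG, with shares of 88.9%, 86.0% and 88.9% whose intervals overlap. The first VHove column named 52 cells NK (74.3%), 10 T cells and 8 unknown, and a column whose header names PAntunes gave the same names. The second VHove column has a joint NK/NKT name and gave it to 59 cells (84.3%), with 10 T cells and 1 dendritic cell. This joint name reached 8 of 9 cells with no tumor, 35 of 43 in LGG and 16 of 18 in HGG.

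The fine label column divided the class between NK and CD8 T names. It named 24 of the 70 cells NK (34.3%) and 40 CD8 T cells (57.1%), of which 23 were central memory (Tcm) and 17 effector memory (Tem). It gave dendritic cell to 3, monocyte to 2 and macrophage to 1. NK was the name of 7 of 9 cells with no tumor, 11 of 43 in LGG and 6 of 18 in HGG. The ratio of NK names was 0.329 for LGG against no tumor (0.177 to 0.610) and 0.429 for HGG against no tumor (0.204 to 0.899), and the exact intervals of the shares overlapped. CD8 T names were given to 1 of 9 with no tumor, 27 of 43 in LGG and 12 of 18 in HGG. The ratio of CD8 names was 5.65 for LGG against no tumor (0.878 to 36.4) and 6.00 for HGG against no tumor (0.919 to 39.2), without a call, over 1 such cell with no tumor. Without doublet calls the ratio for LGG was 5.85 and met the rule for a call. All 7 cells that the first SingleR column named NKT were CD8 T cells here, as were 23 of its 34 innate lymphoid cells and 4 of its 15 NK cells.

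**Figure D4:**
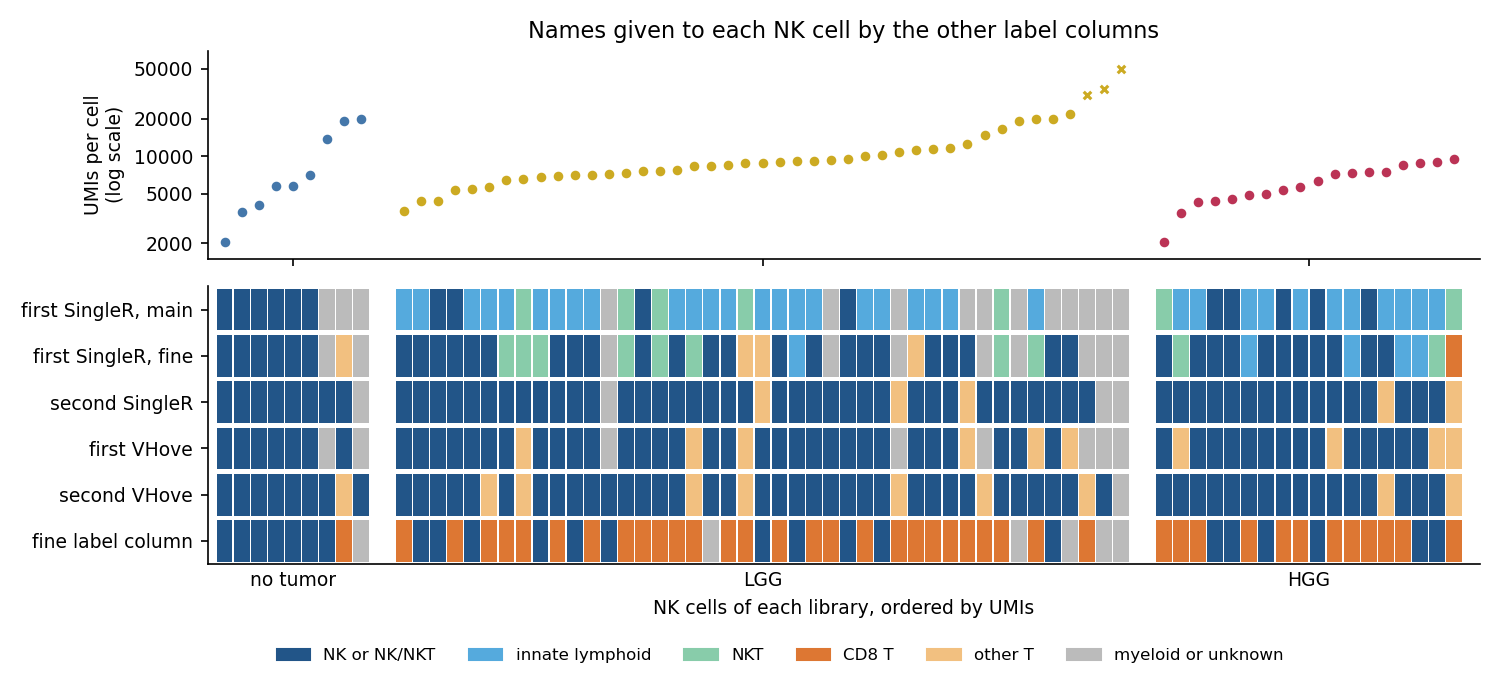
Top, UMIs of each of the 70 NK cells on a log scale, ordered by UMIs within a library, with crosses for doublet calls. Below, the name that each label column (rows, with the broad and the fine names of the first SingleR column apart) gives to the same cell. NK names fill most of the second SingleR and both VHove rows, while in LGG and HGG the first SingleR row holds mostly innate lymphoid names and the fine label row mostly CD8 T names.

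Counted over these 5 columns, NK, NKT or innate lymphoid names were given by all 5 to 19 cells, by 4 to 29, by 3 to 7, by 2 to 7, by 1 to 6 and by 0 to 2. At least 3 columns gave such a name to 55 of the 70 cells (78.6%), which were 7 of 9 with no tumor, 32 of 43 in LGG and 16 of 18 in HGG. The cells with all 5 had a median of 5713 UMIs, and the 15 cells with 0 to 2 had 12609.

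Beside the class, the 159 CD8 T cells took different names from the same columns. The first SingleR column called 63.5% of them NKT, against 10.0% of NK cells. Its innate lymphoid name went to 8.81% of CD8 T cells, against 48.6% of NK cells. The fine label column gave CD8 T names to 84.9% of CD8 T cells and to 57.1% of NK cells. The second SingleR column named 12.6% of CD8 T cells NK, against 87.1% of the NK class. These percents pool the libraries and so mix class with library. The CD8 T cells were 0 no-tumor, 147 LGG and 12 HGG cells, and the NK cells 9, 43 and 18.

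In none of the 22 deposited clusterings did the 70 NK cells form a cluster of their own. In 14 of 22 clusterings all 70 lay in 1 cluster, where they were 6.81% to 10.2% of the cells. Names and clusters rest on the same cells, so this describes the class and tests nothing. At resolution 1.5 the class was split in a group of 51 cells, in a cluster of 344, and a group of 19 cells, in a cluster of 353. The larger group held 7 NK cells of the no-tumor library, 27 of LGG and 17 of HGG, next to 132 CD8 T cells, 130 T cells with no finer name and 31 CD4 T cells. The smaller group held 2 no-tumor cells, 16 LGG cells and 1 HGG cell, next to 306 T cells with no finer name, 26 CD8 T cells and 2 activated microglia.

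These groups differed in depth and names. The 51 cells had a median of 7133 UMIs, no doublet call, and NK, NKT or innate lymphoid names from the first SingleR column in 50 cells. The 19 cells had a median of 12609 UMIs, all 3 doublet calls, 6 such names and 11 microglia names. S or G2M was called in 41 of the 51 cells (80.4%) and in 11 of the 19 (57.9%). No interval was computed for these 2 shares, so no difference in phase is read from them. At resolution 5, the finest deposited, 49 NK cells lay in a cluster of 63 cells, whose other members were 12 CD8 T cells and 2 T cells, so that 77.8% of that cluster was named NK. Another 18 lay among 270 cells, and 3 cells, all from HGG, among 142.

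Other columns also gave NK names to cells outside the class. The second SingleR column named 116 cells NK, of which 61 were in the class (52.6%). The 55 others were 23 T cells with no finer name, 20 CD8 T cells, 8 monocyte or macrophage cells and 4 B cells. The first VHove column named 66 cells NK with 78.8% of them in the class, the second VHove column 79 with 74.7%, and the fine label column 39 with 61.5%. NK, NKT and innate lymphoid names of the first SingleR column together covered 304 cells, of which 18.4% were in the class.

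A set of 72 cells had an NK, NKT or innate lymphoid name in at least 3 of the 5 columns, and 55 of them (76.4%) were in the class. The 17 others comprised 8 T cells, 7 CD8 T cells, 1 B cell and 1 monocyte or macrophage cell, with 14 from LGG, 3 from HGG and 0 with no tumor. Their median of 14665 UMIs was above the 7614.5 of the NK class, and 1 was a doublet call. The 8 T cells had 11148.5 UMIs, below the 17700.5 of their class. The 7 CD8 T cells had 18486, above the 9925 of theirs. Taken in place of the class, the 72 cells were 7 no-tumor, 46 LGG and 19 HGG cells. Their share of all cells in LGG was then 4.64 times that with no tumor (2.10 to 10.3), which was again called higher, and in HGG 0.506 times that in LGG (0.297 to 0.862), without a call.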

How the data were processed

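A single table gave 12668 cells in rows and had 64 columns; 12 of the columns were left unused. Per the labels' protocols, Cell Ranger 3.0.2 mapped the reads to mm10. The submitters' processing notes also list Seurat 4. How cells were filtered was not stated in these sources; no cell has fewer than 501 UMIs or 201 genes, and mitochondrial values reach 9.97%. The authors deposited, per the file headers, a raw count of UMIs and of genes per cell, a mitochondrial and a ribosomal percent, and an S and a G2M score. Phase, doublet calls, names and 22 clusterings were deposited too. Neither the genes behind the scores nor the doublet caller were found in the sources used here. Doublet calls were kept in and left out as an alternative.

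Cells were assigned to groups through their library name. The members and lists were chosen with earlier results of these data known. Shares, exact intervals, ratios and calls were computed with SciPy 1.17.1 in Python 3.11.15. Intervals of ratios and calls of higher were checked on simulated shares of whole libraries. Shares within the class or among T and NK cells, calls of lower and the limit for a share of 0 were not simulated. Intervals are at 95%, and a share of 0 was given a limit of 3 counts. Items named are every name that a label column gives to an NK cell, with the T cell classes as neighbours. Alternatives changed the depth limits, the cells counted against and the column that names NK cells.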

Additional observations from a re-analysis of the deposited data

How the results depend on the processing

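Of 101 alternatives to a comparison of libraries, 73 kept direction and call. Of 117 alternatives to a value with no call, 112 stayed within its interval. Among them was the median S score in LGG. It changed sign to -0.000269 without the cells that none of the 5 columns names NK, NKT or innate lymphoid. Many of these 117 could not move the value. The limit on genes removed no NK cell. Leaving out doublet calls, or cells that none of the 5 columns so names, removed none with no tumor or in HGG. The scANVI column has no NK name. In both totals the cell label and PAntunes columns repeated the counts of the fine label and first VHove columns. Neither 112 nor 73 is therefore a count of separate checks. For the NK share of all cells, LGG against no tumor lost its call with the fine label and cell label columns (ratio 1.85 each) and among cells other than microglia (1.27), and turned direction among lymphoid cells (0.641). HGG against LGG was 0.962 in the common range of UMIs, turned to 1.71 among lymphoid cells and gained a call with the first SingleR column (0.203 broad, 0.350 fine), the second (0.383 broad, 0.350 fine) and the second VHove column (0.448). HGG against no tumor gained a call in the common range of UMIs (4.89) and with the first SingleR column (4.54 broad, 3.75 fine), and turned among cells other than microglia (0.752).

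For the share of T and NK cells, broad first SingleR names turned LGG against no tumor (1.26), HGG against LGG (0.861) and HGG against no tumor (1.09). Fine names lost the call of LGG against no tumor (0.689). HGG against LGG gained a call with the broad names of the second SingleR column (1.80), the first VHove and PAntunes columns (2.37 each) and the second VHove column (2.21).

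These alternatives within the class were chosen after seeing the data. The NK name of the first SingleR column lost its call for LGG with fine names (0.802) and gained one for HGG, both against no tumor, at most 10000 UMIs (0.278). The innate lymphoid name lost its calls there (bounds of 1.26 for LGG and 1.22 for HGG), and with fine names its bound for HGG was 0.667, which gives no direction. With fine names LGG gave no value, at 1 cell against 0. CD8 T names in the fine label column gained a call for LGG without doublets (5.85).

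Leaving out each library in turn, doublet calls ran from 0% to 5.77%, NK, NKT and innate lymphoid names from 73.1% to 88.9% in the first SingleR column and from 27.9% to 48.1% in the fine label and cell label columns, and CD8 T fine names of the first SingleR column from 0% to 3.70%. Limits of 1000 UMIs or 500 genes removed no NK cell. The causes were not tested. With 9 no-tumor cells, shares within the class have wide intervals.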
